A study of Schizosaccharomyces pombe with 6 samples.

Results

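Annotated intergenic RNA genes of the fission yeast Schizosaccharomyces pombe were followed in cells with and without the 14-3-3 protein gene rad24. They were the rows of the deposited table whose gene type is non-coding RNA and whose product names an intergenic RNA and not an antisense RNA, which gave 429 of 6986 gene identifiers. The other classes held 5126 protein-coding genes, 694 antisense RNA genes and 391 further non-coding RNA genes. Of the 429, 320 were described as a predicted intergenic RNA, 108 carried the added remark that they may be an alternative UTR of a neighbour, and the last was omt3. Poly(A)+ RNA had been sequenced from an h+ wild type strain, as 3 libraries, and from its rad24∆::NatMX counterpart, also h+, as 3 more. The cells were in vegetative log phase in rich YES medium at 30 °C. Each genotype was 1 strain, and the labels do not say whether its libraries came from separate cultures, so every p-value measures the spread between these libraries only. The comparison asks what loss of Rad24 does to transcripts made between the protein-coding genes, in a study of transcriptional interference, the repression of a gene by transcription that starts upstream of it.

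Compact genomes such as that of fission yeast are transcribed well beyond their protein-coding genes. RNA polymerase II makes polyadenylated non-coding RNAs from the gaps between genes, many of them starting back to back with a coding gene and many kept low by nuclear RNA decay. Some act on the next gene through the act of transcription itself: at tgp1, which encodes a glycerophosphodiester transporter, transcription of the upstream RNA nc-tgp1 keeps the promoter off when phosphate is plentiful, and at fbp1 a series of upstream transcripts precedes induction in glucose starvation. The RNA rse1 has been described as a repressor of the adjacent ste11, which encodes the transcription factor of mating and early meiosis.

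The windows around the starts of 4 intergenic RNA genes are shown because they lie beside the genes on which the results below turn, mei2, ste11 and tgp1. They run from 250 bases before to 50 bases after the annotated start, without the bases inside a protein-coding gene, are taken from the RefSeq ASM294v3 genome, whose coordinates are given although reads were counted on ASM294v2, and are read along the strand of the intergenic RNA gene. Capitals mark a TR box, the site bound by Ste11 (TTCTTTGTT), or a TATA box (TATAAA), on either strand. SPNCRNA.993 is transcribed away from mei2, whose RNA-binding product is needed to enter meiosis, and the printed bases cover the gap between them and the first 50 bases of the transcript (chrI:4515026-4515231, forward strand). The RNA gene omt3 starts downstream of SPNCRNA.993 on the same strand (chrI:4515820-4516119, forward strand). The rse1 window (chrII:3982057-3982356, reverse strand) and the SPNCRNA.1343 window, which lies upstream of tgp1 (chrII:353781-354080, forward strand), held no match to either motif. The names rse1, fbp1-ot2 and fbp1-ot3 are RefSeq's and stand beside the identifier where first described.
SPNCRNA.993: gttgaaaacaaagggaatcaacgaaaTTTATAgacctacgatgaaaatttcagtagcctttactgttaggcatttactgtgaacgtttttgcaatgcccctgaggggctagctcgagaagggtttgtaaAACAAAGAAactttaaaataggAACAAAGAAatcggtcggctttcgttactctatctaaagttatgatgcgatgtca
omt3: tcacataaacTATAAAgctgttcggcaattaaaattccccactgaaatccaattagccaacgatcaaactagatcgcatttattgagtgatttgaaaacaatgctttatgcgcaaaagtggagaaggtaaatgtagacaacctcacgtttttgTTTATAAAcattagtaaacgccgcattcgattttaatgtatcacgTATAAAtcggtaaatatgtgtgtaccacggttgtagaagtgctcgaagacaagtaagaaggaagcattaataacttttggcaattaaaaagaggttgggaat
rse1: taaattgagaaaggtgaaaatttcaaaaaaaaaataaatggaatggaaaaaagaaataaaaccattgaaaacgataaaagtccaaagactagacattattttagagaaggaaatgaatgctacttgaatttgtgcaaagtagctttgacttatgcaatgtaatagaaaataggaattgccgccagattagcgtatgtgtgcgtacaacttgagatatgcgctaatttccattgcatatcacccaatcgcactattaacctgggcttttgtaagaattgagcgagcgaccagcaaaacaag
SPNCRNA.1343: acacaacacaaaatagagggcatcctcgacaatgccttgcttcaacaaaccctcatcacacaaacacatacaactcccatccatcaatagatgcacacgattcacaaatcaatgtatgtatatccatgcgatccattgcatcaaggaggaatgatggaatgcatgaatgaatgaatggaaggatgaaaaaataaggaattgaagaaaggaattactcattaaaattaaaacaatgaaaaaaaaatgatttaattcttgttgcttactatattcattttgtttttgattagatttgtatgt

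Total counts were 11539278 to 15282140 for wild type and 19396868 to 21730112 for the mutant, and the mutant libraries were thus the deeper ones without exception. The deleted gene rad24 had 18442 to 22565 counts in wild type and 15 to 39 in the mutant, as the labels say. Ribosomal RNA genes took 0.00191% to 0.00435% of the counts in the 6 libraries. Small nuclear RNA genes took 0.00111% to 0.00127% in wild type and 0.00037% to 0.000534% in the mutant, and the 10 most abundant genes 5.68% to 5.93% and 6.31% to 6.58%. Levels are given in CPM, the count divided by the TMM-scaled total and brought to a fixed total. The summed level of 4 P-cell markers, which h+ cells express, was 1363 to 1482 CPM for wild type and 1633 to 1761 for the mutant, and the sum hides opposite changes. The pheromone receptor gene map3 rose from 35.6 to 242.9 CPM, the pheromone gene map2 from 5.14 to 450.2 and map1 from 30.7 to 65.0, while the protease gene sxa1 fell from 1424 to 836. The summed level of 6 M-cell markers was 110.1 to 123.7 and 103.1 to 106.4 CPM, where the receptor gene mam2 fell from 35.5 to 4.31 CPM and mam1 from 54.5 to 41.8, and mfm1, mfm2, mfm3 and sxa2 rose, mfm2 from 2.28 to 12.2. No marker of either list was at 0 in the mean of a genotype. The part of these differences in the results below was not tested. In bulk RNA a higher level per cell and more cells that make the RNA cannot be told apart.

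Intergenic RNA genes were low, and their levels moved more often up than down in the mutant. Their median level per length was 3.16 (wild type) and 4.08 (mutant) CPM per kb, against 43.9 and 43.7 CPM per kb for protein-coding genes, over the 416 members and 5110 coding genes with a length in the annotation. They took 0.278%, 0.279% and 0.291% of all counts in wild type, and 0.331%, 0.331% and 0.342% of all counts in the mutant. Every mutant library lay above every wild type library, with means of 0.283% ± 0.00709 and 0.334% ± 0.00637 (SD, n = 3 each; exact permutation test over the libraries, two-sided, p = 0.1, the smallest it can give). Antisense RNA genes took 0.630% to 0.661% in wild type and 0.652% to 0.669% in the mutant, 2 ranges that overlap, and the other non-coding RNA genes 0.551% to 0.602% and 0.392% to 0.420%.

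Of the 429, 360 had enough counts to be tested. At an adjusted p below 0.05 (edgeR quasi-likelihood test, adjusted over all 6084 tested genes), 164 were higher and 79 lower in the mutant, or 45.6% and 21.9% of those tested, where 40.9% and 37.4% of all genes were called in these directions. The 243 calls in either direction made up 67.5%, against 78.3% of all genes. Of the calls, 67.5% were higher among the members and 52.3% among all genes, and these shares were 76.0% and 67.0% with library size as the only scaling, and 73.0% and 61.1% with upper quartile factors. At least 2-fold, 84 rose and 30 fell, or 23.3% and 8.33%, against 7.23% and 5.52% of all genes, and the 114 together were 31.7%, against 12.8%. The median log2 fold change was 0.26, with quartiles of -0.23 and 0.91, against 0.02 over all tested genes. All tested genes with a mean below 5 CPM had a median of 0.27. For protein-coding genes the shares at least 2-fold higher and lower were 5.24% and 4.15%, and for antisense RNA genes 12.95% and 13.8%. All 3 mutant libraries lay above all 3 wild type libraries in 171 of the 360 and below them in 86, where 41.8% and 38.3% of all tested genes did so.

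**Figure D1:**
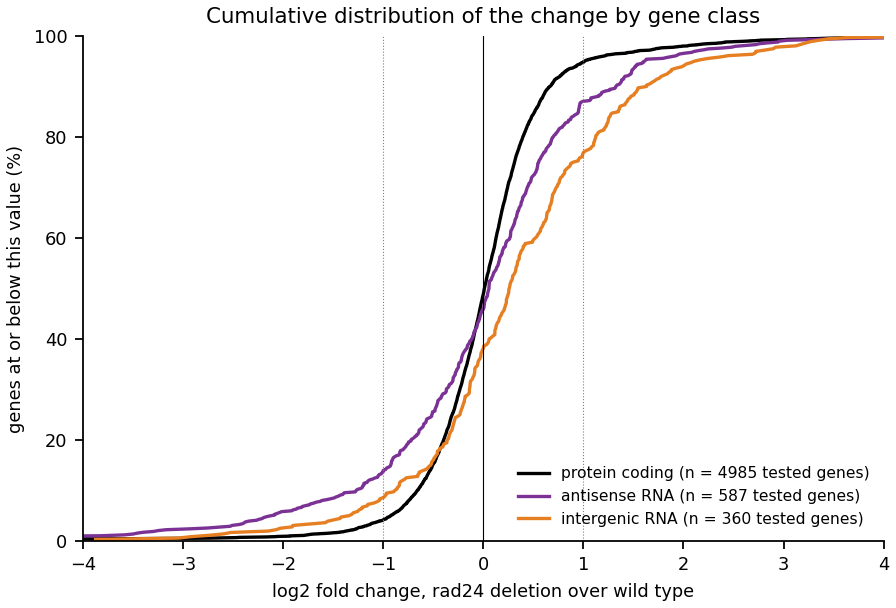
Share of tested genes (vertical axis, percent) at or below each log2 fold change of the rad24 deletion over wild type (horizontal axis, cut at -4 and 4), for 360 intergenic RNA, 587 antisense RNA and 4985 protein-coding genes. Dotted lines mark a 2-fold change; the intergenic curve lies to the right of the coding curve above 0, with 23.3% of its genes called at least 2-fold higher.

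These shares depend on how a gene came to be tested. The minimum was about 0.577 CPM in 3 libraries, and 308 of the 360 met it in all 6 libraries, of which 56 rose and 21 fell at least 2-fold. The matching counts over all genes were not computed, so these have no background. A further 36 met it only in the 3 mutant libraries, and 28 of them were called at least 2-fold higher, while 11 met it only in the 3 wild type libraries, and 9 of them were called at least 2-fold lower. Genes that pass through 1 genotype had to differ, so these calls describe single genes and give no support for the class. A split by the mean over all 6 libraries lessens this without removing it, since the mean holds the higher genotype. At a mean of at least 5 CPM, 76 of 170 intergenic RNA genes were higher and 48 lower, or 44.7% and 28.2%, against 41.0% and 39.7% of all genes at that level. At least 2-fold, 31 rose and 16 fell, or 18.2% and 9.41%, against 4.84% and 4.88%, and the median log2 fold change was 0.18. Levels were not matched by this split. The median level at or above 5 CPM was 8.54 (wild type) and 10.1 CPM (mutant) for the members, and 80.1 and 80.3 for all genes. The part of level in these shares was not tested. Of the 31 rises 17 were below 5 CPM in wild type, and of the 16 falls 4 were below it in the mutant, where among all genes at that level 83 of 259 and 44 of 261 were. In either direction these were 124 calls, or 72.9%, against 80.7%, and 47 of at least 2-fold, or 27.6%, against 9.72%. The mutant libraries lay wholly above the wild type libraries in 80 of the 170 and wholly below them in 51, against 41.8% and 40.6% of all genes at that level. Of the 190 tested members below a mean of 5 CPM, 88 were higher and 31 lower, or 46.3% and 16.3%, against 40.4% and 20.7% of all 735 tested genes below it. At least 2-fold, 53 rose and 14 fell, or 27.9% and 7.37%, against 24.6% and 10.2%, so at these low levels the members' shares lay near those of all genes. The median log2 fold change at these levels was 0.35 for the members and 0.27 for all genes. The remaining 69 of the 429 were not tested, 8 of them without a count in any library. Their summed counts over the 6 libraries had a median of 16 and reached 62, and by mean CPM 46 were above and 15 below wild type in the mutant. The same count was not made for the other untested genes.

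**Figure D2:**
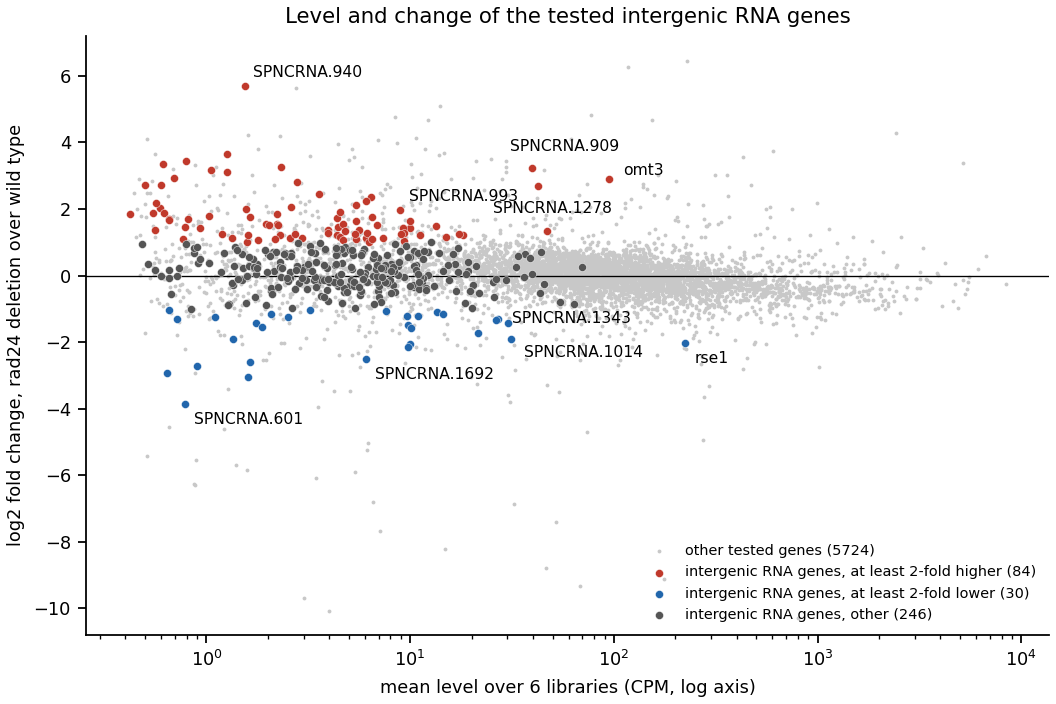
Log2 fold change of the rad24 deletion over wild type (vertical axis) against the mean level over 6 libraries (CPM, log axis) for 360 tested intergenic RNA genes and the other tested genes (grey). The 84 intergenic RNA genes called at least 2-fold higher (red) and the 30 called at least 2-fold lower (blue) lie mostly below 20 CPM. At higher levels omt3, SPNCRNA.909, SPNCRNA.1278 and SPNCRNA.1116 are among the rises and rse1 and SPNCRNA.1014 among the falls.

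The pair SPNCRNA.993 and omt3 rose with mei2. The RNA omt3 (SPNCRNA.130) had 287, 265 and 323 counts in wild type against 3801, 3324 and 3704 in the mutant. Every mutant library held more than 10 times the count of any wild type library, and the level rose 7.47-fold, with means of 22.6 ± 2.49 and 167 ± 4.92 CPM (SD over 3 libraries) and a log2 fold change of 2.90 ± 0.06 SE (adjusted p = 2.77e-14 in edgeR). SPNCRNA.993 lies between omt3 and mei2 and had 49, 35 and 57 counts in wild type against 325, 278 and 318 in the mutant. It rose 3.95-fold to 14.2 ± 0.602 CPM, without overlap of the libraries (log2 fold change 1.98 ± 0.12 SE, adjusted p = 2.83e-09 in edgeR). Its start lies 157 bases from that of mei2, which is transcribed the other way and rose by 3.02 on the log2 scale to 642 CPM. The next gene downstream of omt3, omt2, had a log2 fold change of 0.19. The window upstream of SPNCRNA.993 held 4 TR boxes, at 225, 199, 27 and 5 bases before its start, each on the strand of mei2. The first pair of them lies inside the annotated mei2 transcript and is not printed above. No TR box was found in the omt3 window, where 4 TATA boxes lie at 240, 97, 95 and 52 bases before the start, those at 97 and 95 overlapping on opposite strands.

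**Figure D3:**
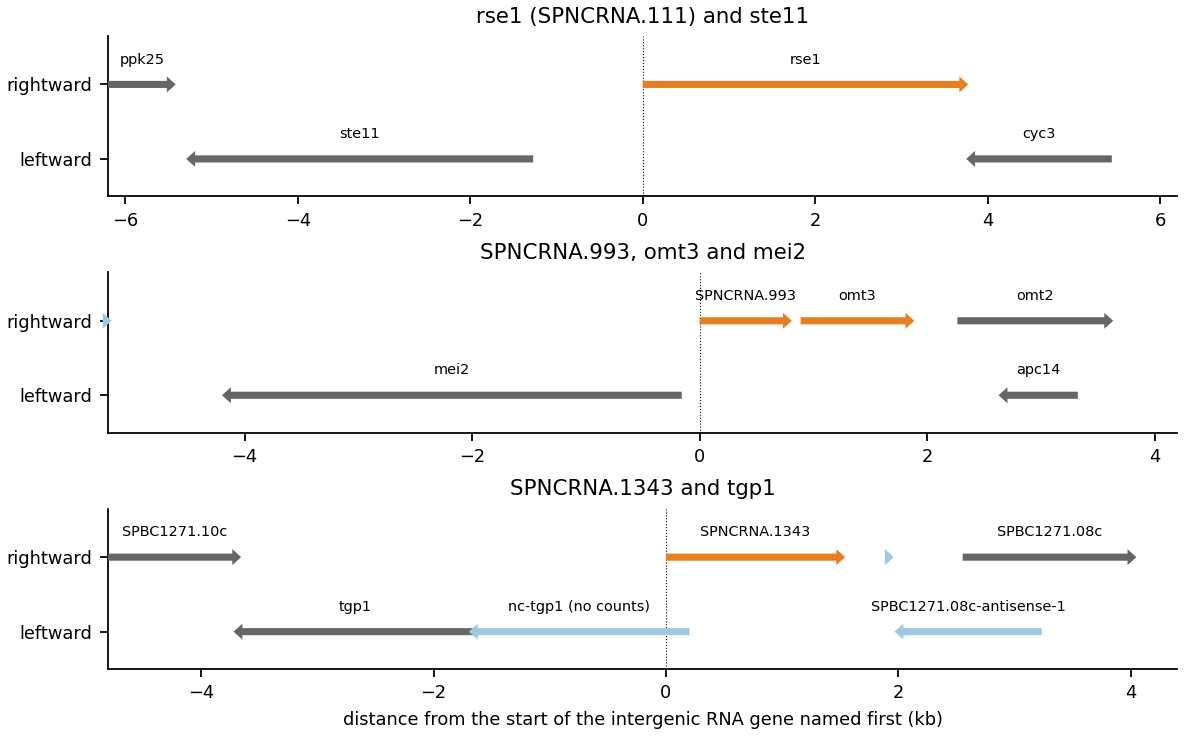
Annotated genes of the ASM294v3 annotation around rse1, SPNCRNA.993 and SPNCRNA.1343, as arrows in the direction of transcription, against the distance from the start of the intergenic RNA gene named first (kb). Orange arrows are intergenic RNA genes, grey arrows protein-coding genes and blue arrows other RNA genes; ste11 starts 1270 bases, mei2 157 bases and tgp1 1620 bases upstream, and nc-tgp1 has no counts in these files.

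SPNCRNA.909 had the largest rise among the members that the naming rule admits, which asks for a call, no overlap of the libraries and a mean of 5 CPM or more in 1 genotype. It had 116, 90 and 93 counts in wild type against 1633, 1450 and 1532 in the mutant. Its means were 7.69 ± 0.918 and 71.3 ± 0.347 CPM, a rise of 9.32-fold (log2 fold change 3.22 ± 0.07 SE, adjusted p = 8.03e-14 in edgeR). It runs on the strand opposite to both neighbours, starting inside the first 186 bases of nde2, which encodes a mitochondrial NADH dehydrogenase and had a log2 fold change of 0.36, and ending inside the cullin gene pcu4, at -0.34. SPNCRNA.1278 had 195, 97 and 152 counts in wild type against 1634, 1444 and 1657 in the mutant, and rose 6.46-fold, with a mean of 73.2 ± 3.49 CPM in the mutant (log2 fold change 2.69 ± 0.09 SE, adjusted p = 5.82e-12 in edgeR). Its neighbours fell by less, with -0.32 for the divergent glucan synthase gene bgs4 and -0.61 for sal3, an importin gene that follows it on the same strand.

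The other named rises had levels of 6.04 to 15.1 CPM in the mutant and of 1.10 to 4.79 CPM in wild type. That their libraries do not overlap follows from the naming rule. SPNCRNA.989 rose 3.79-fold (36, 20 and 18 counts against 149, 145 and 170), and the aldehyde dehydrogenase gene atd1, which starts 221 bases away in the other direction, rose 13.3-fold. SPNCRNA.963 rose 4.74-fold (30, 20 and 33 counts against 239, 218 and 195), beside the divergent oxidoreductase gene SPAC26H5.09c, which rose 4.55-fold. SPNCRNA.1182 rose 3.39-fold beside the divergent co-chaperone gene sti1, which rose by 0.60 on the log2 scale. In these 3 pairs the coding gene moved the same way. SPNCRNA.626 rose 5.15-fold, SPNCRNA.1068 4.31-fold, SPNCRNA.1269 3.31-fold and SPNCRNA.1390 3.10-fold. SPNCRNA.626 and SPNCRNA.1068 are marked as possible alternative UTRs. Beside SPNCRNA.626, SPAC806.04c had a log2 fold change of 0.55. The divergent neighbour of SPNCRNA.1068, SPAC11E3.14, had 0.70 and gas5 downstream -0.53. The divergent neighbour of SPNCRNA.1269, snf22, had -0.10 and grc3 downstream -0.07. The gene mfs3, a spermidine transporter gene upstream of SPNCRNA.1390 on the same strand, fell by 1.43 on the log2 scale, and SPBC36.02c, the transporter gene downstream of it, rose by 0.84.

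**Figure D4:**
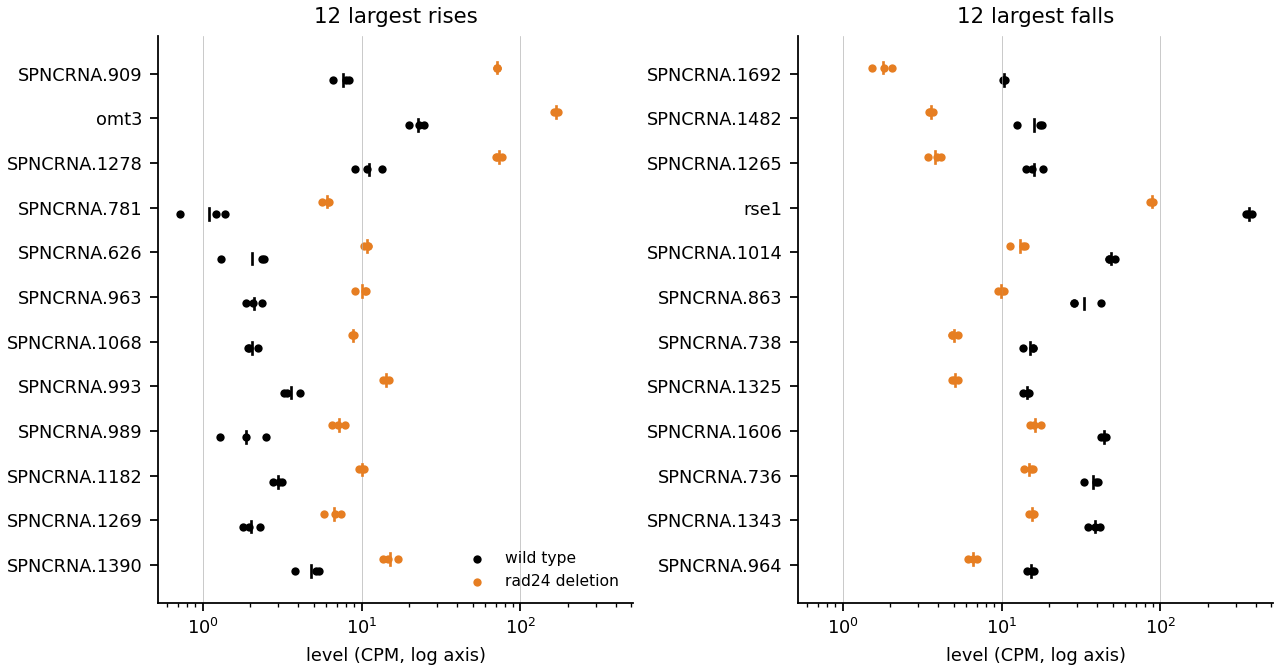
Level of the 12 largest rises and 12 largest falls that the naming rule admits (CPM, log axis), 1 point a library, with wild type in black, the rad24 deletion in orange and a bar at the mean of 3. By that rule no wild type point overlaps the mutant points of the same gene. The rse1 points run from 347 to 376 CPM in wild type and from 86.6 to 89.6 CPM in the mutant.

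The gap upstream of hsr1, the gene of a stress-responsive transcription factor, held 8 intergenic RNA genes, more than any other gap, and all 8 were higher in the mutant. SPNCRNA.781, on the strand of hsr1, had 20, 13 and 10 counts in wild type against 129, 126 and 135 in the mutant and rose 5.46-fold (log2 fold change 2.45 ± 0.20 SE, adjusted p = 7.89e-08 in edgeR). SPNCRNA.784 followed with a log2 fold change of 1.51 and SPNCRNA.777, on the opposite strand, with 1.21. The other 5, SPNCRNA.778, SPNCRNA.779, SPNCRNA.780, SPNCRNA.782 and SPNCRNA.783, ranged from 0.42 to 0.99. The gene hsr1 itself rose by 1.76 on the log2 scale to 315 CPM, and pcs2, the gene on the far side of the gap, by 0.32. Transcripts of 1 gap are not independent observations, and reads that run across several of them cannot be assigned from gene counts.

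Among the falls, rse1 (SPNCRNA.111) was the most abundant intergenic RNA gene in wild type and by the mean over the 6 libraries, and second to omt3 in the mutant. It had 5016, 3837 and 5252 counts in wild type against 1973, 1832 and 1904 in the mutant, although the mutant libraries were deeper. Its means were 360.4 ± 14.6 and 88.3 ± 1.57 CPM, a fall of 4.08-fold (log2 fold change -2.03 ± 0.04 SE, adjusted p = 2.17e-14 in edgeR). The adjacent ste11 starts 1270 bases away in the other direction. Its means were 365.3 ± 1.98 and 361.6 ± 8.21 CPM, with overlapping libraries (log2 fold change -0.01 ± 0.03 SE, adjusted p = 0.709 in edgeR). The ste11 value was 0.15 when libraries were scaled by their totals alone, which put the median of all genes at 0.19. On the other side, the cytochrome c heme lyase gene cyc3, which ends within rse1 on the opposite strand, had a log2 fold change of -0.04 (edgeR adjusted p = 0.276) and of 0.12 under the same scaling.

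SPNCRNA.1343 fell while tgp1 rose. It had 558, 449 and 489 counts in wild type against 365, 304 and 339 in the mutant, and its level fell 2.46-fold, with means in CPM of 38.5 ± 3.45 and 15.6 ± 0.602 (log2 fold change -1.30 ± 0.07 SE, adjusted p = 1.91e-09 in edgeR). The libraries did not overlap, which the naming rule requires. The transporter gene tgp1, 1620 bases from start to start in the other direction, had a log2 fold change of 4.66. In the annotation nc-tgp1 starts inside SPNCRNA.1343, on the opposite strand, and runs to tgp1. It is not a row of the count table and was not analysed here. At the gluconeogenesis gene fbp1, the upstream transcript SPNCRNA.1325 (fbp1-ot3) had 196, 159 and 206 counts in wild type against 121, 100 and 108 in the mutant and fell 2.82-fold (log2 fold change -1.50 ± 0.10 SE, adjusted p = 9.95e-09 in edgeR), and fbp1 fell by 0.70 on the log2 scale. SPNCRNA.1325 is marked as a possible alternative UTR, so its fall and that of fbp1 may not be separate changes. A second transcript there, SPNCRNA.1326 (fbp1-ot2), had no count in wild type and 7, 5 and 3 counts in the mutant, too few to be tested.

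Other falls stood beside coding genes that fell, rose or kept close to their level. SPNCRNA.1014 had 688, 558 and 666 counts in wild type against 319, 232 and 294 in the mutant and fell 3.75-fold, and gwt1, a gene of glycosylphosphatidylinositol anchor synthesis that starts 105 bases away in the other direction, fell 2.77-fold. SPNCRNA.1482 fell 4.43-fold (182, 186 and 253 counts against 80, 72 and 80), and the divergent glucanase gene SPBP23A10.11c, 95 bases away, fell 2.48-fold. SPNCRNA.736 and SPNCRNA.738 lie in series beside the divergent cyclin gene pas1 and fell by 1.34 and 1.58 on the log2 scale, with pas1 at -1.01. SPNCRNA.1692 had 149, 110 and 146 counts in wild type against 35, 42 and 39 in the mutant and fell 5.75-fold, the largest fall under the naming rule, while SPBC8E4.04, an oxidoreductase gene whose first 276 bases it overlaps from the opposite strand, rose 3.38-fold. SPNCRNA.863 fell 3.33-fold (411, 306 and 587 counts against 235, 205 and 204), and the gene that follows it on the same strand, SPAC2E1P3.05c, which encodes a fungal cellulose binding domain protein, rose 5.28-fold, while its divergent neighbour SPAPB2C8.01 fell by 0.69 on the log2 scale. SPNCRNA.1606 fell 2.70-fold and zfs1 downstream of it, the gene of an mRNA decay factor, rose 1.82-fold, while its divergent neighbour SPBPB7E8.01 fell by 0.38 on the log2 scale. SPNCRNA.1265 fell 4.19-fold between the SAGA subunit gene sgf73, at 0.56, and mrpl17, at 0.34. SPNCRNA.964, marked as a possible alternative UTR, fell 2.32-fold and overlaps, on the same strand, the translation factor gene tif51, which fell 2.37-fold, while SPNCRNA.963 on the other side of tif51 rose.

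Of the 8 most abundant intergenic RNA genes, the remaining 6 had levels of 26.5 to 81.5 CPM in wild type. SPNCRNA.1116 rose 2.55-fold to 67.5 ± 2.24 CPM, SPNCRNA.671 1.64-fold to 54.1 ± 0.635 CPM and SPNCRNA.1443 by 0.27 on the log2 scale to 76.3 ± 2.23 CPM. SPNCRNA.995 fell 1.79-fold, SPNCRNA.1115 1.75-fold and SPNCRNA.1097 1.19-fold, and the call of SPNCRNA.1097 was lost with scaling by library size only (log2 fold change -0.09, edgeR adjusted p = 0.186). SPNCRNA.995 and SPNCRNA.1115 are marked as possible alternative UTRs. SPNCRNA.1115 and SPNCRNA.1116 lie in 1 gap on opposite strands and changed in opposite directions. The RNA prl59, the only member besides omt3 with a name of its own in the deposited table, fell 1.96-fold, from 26.6 ± 1.79 to 13.5 ± 1.13 CPM.

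The widest ratios were found at levels too low for the naming rule, and the genes given here were picked for them. SPNCRNA.940 had 1, 0 and 1 counts in wild type against 64, 55 and 77 in the mutant, a ratio of 66.3 per total count with an exact 95% interval of 18.1 to 552 that covers counting error only. It starts 140 bases from SPAC4H3.08, which is transcribed the other way and had a log2 fold change of 4.83. SPNCRNA.1120 (0, 4 and 3 counts against 48, 49 and 54) and SPNCRNA.1121 (6, 4 and 7 counts against 112, 87 and 76) rose near the hexose transporter gene ght1. At the other extreme, SPNCRNA.601 had 14, 17 and 26 counts in wild type against 2, 4 and 0 in the mutant (log2 fold change -3.87), SPNCRNA.1299 40, 32 and 40 against 6, 8 and 8 (-3.05), and SPNCRNA.1304 13, 17 and 13 against 2, 1 and 6 (-2.92). These 3 lie within 100 kb of a chromosome end. Of 14 tested members within that distance 5 were higher and 8 lower, or 35.7% and 57.1%, with a median log2 fold change of -0.38. Of 342 elsewhere on the chromosomes 158 were higher and 69 lower, or 46.2% and 20.2%, with a median of 0.27. Over all tested genes 40.9% were higher and 37.4% lower. The 2 ranges of log2 fold change overlap (-3.87 to 1.85 and -2.73 to 5.70), and the difference was not tested.

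The change of an intergenic RNA gene was weakly related to that of a divergent coding neighbour, the nearest upstream coding gene where it lies on the other strand. Starts of such pairs lay up to 7922 bases apart, some pairs overlap, and another RNA gene can lie between, as SPNCRNA.993 does between omt3 and mei2. Over 290 divergent pairs with both genes tested, Pearson's r of the log2 fold changes was 0.30 and Spearman's rho 0.27, as a description across pairs that share the same 6 libraries and, in part, a coding gene (275 distinct ones). Pearson's r was 0.37 over 201 pairs whose starts lie under 500 bases apart, 0.17 over the other 89 and 0.30 over the 217 pairs without overlap. Beside the 64 members of these pairs that rose at least 2-fold, the coding gene was higher in 39 and lower in 15, and at least 2-fold in 15 and 2. Beside the 26 that fell at least 2-fold, it was higher in 9 and lower in 15, and at least 2-fold in 4 and 6. For the other 200 the counts were 93 and 82, and 19 and 10. Of all tested protein-coding genes 41.9% were higher and 39.5% lower, and 5.24% and 4.15% at least 2-fold. The pairs were not tested against these shares. The rise of SPNCRNA.993 with mei2, SPNCRNA.989 with atd1 and SPNCRNA.940 with SPAC4H3.08 is of the first kind, and SPNCRNA.1343 with tgp1 and SPNCRNA.1692 with SPBC8E4.04 are among the 4 exceptions of the second. The correlations and counts include members that met the count minimum in a single genotype, such as SPNCRNA.940. They were not computed without such members.

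Where the coding gene follows on the same strand, so that transcription of the intergenic RNA runs towards its promoter, the correlations were closer to 0. Over 231 such pairs r was 0.01 and rho 0.04. Beside 57 members that rose at least 2-fold the downstream gene was higher in 32 and lower in 19, and at least 2-fold in 7 and 3. Beside 17 that fell it was higher in 6 and lower in 10, and at least 2-fold in 2 and 1. The falls of SPNCRNA.863 and SPNCRNA.1606 above genes that rose are 2 of the 6 with a higher gene. For the other 157 members the counts were 65 and 66, and 10 and 6. The shares of all tested protein-coding genes were 41.9% higher and 39.5% lower, and 5.24% and 4.15% at least 2-fold, and no test was made against them. Over the 89 of these pairs whose member is marked as a possible alternative UTR, r was 0.21, and over the other 142 it was -0.09. For 112 convergent pairs r was 0.09 and for 53 pairs with the coding gene upstream on the same strand 0.08. Members that met the count minimum in a single genotype are included in these pairs as well.

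**Figure D5:**
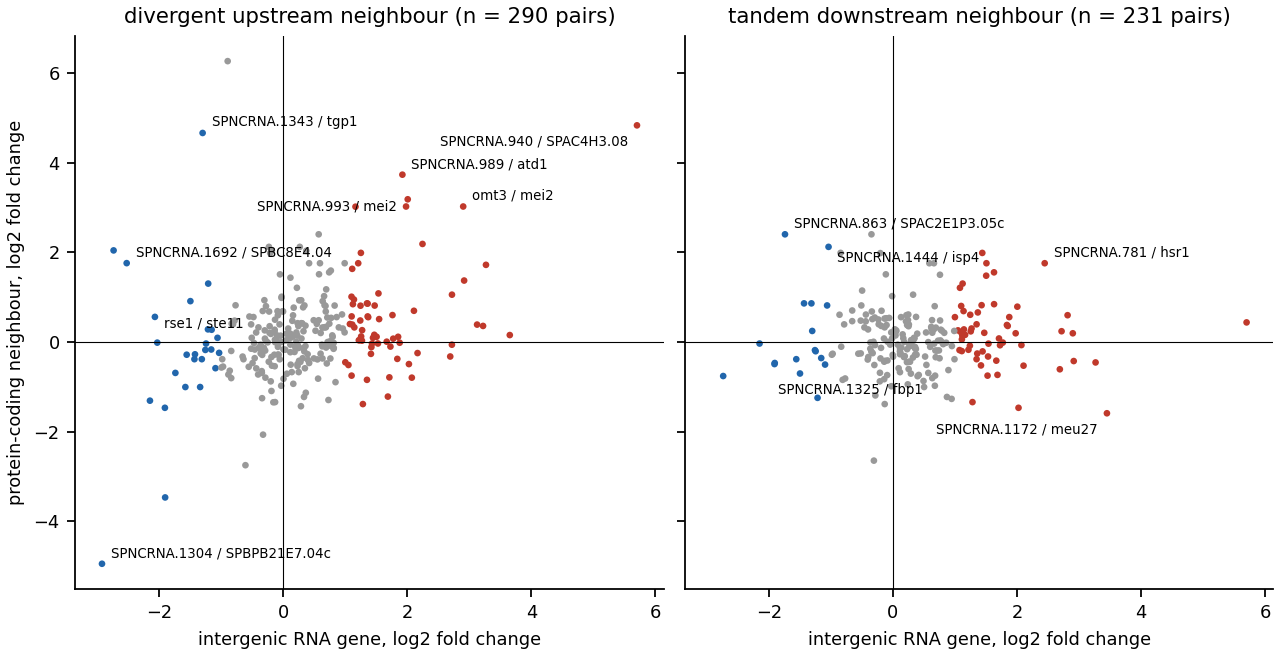
Log2 fold change of the neighbouring protein-coding gene (vertical axis) against that of the intergenic RNA gene (horizontal axis), rad24 deletion over wild type, for 290 pairs with a divergent upstream coding gene (left) and 231 pairs in which the coding gene follows on the same strand (right). Red and blue points are intergenic RNA genes called at least 2-fold higher and lower; SPNCRNA.1343 and tgp1 lie at -1.30 and 4.66, rse1 and ste11 at -2.03 and -0.01.

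Intergenic RNA genes that share a gap were compared pair by pair. The 355 tested members with a coding gene on both sides lay in 294 gaps, 48 of which held more than 1. Of 26 pairs on the same strand of a gap, 19 were called in the same direction, none in opposite directions, and 7 had at most 1 call in the pair. Of 63 pairs on opposite strands, 27 were called in the same direction, 16 in opposite directions, and 20 had at most 1 call. Without the gap of hsr1 these counts were 7, 0 and 7 of 14, and 11, 16 and 20 of 47. Among all tested members 45.6% were called higher and 21.9% lower, and no expected number of such pairs was computed. Reads that run across members on the same strand of a gap cannot be assigned, so such pairs may not be separate changes. Pairs on opposite strands that moved at least 2-fold in opposite directions were SPNCRNA.1013 at 2.03 (6, 2 and 1 counts against 19, 21 and 22) with SPNCRNA.1014 at -1.91, SPNCRNA.1156 at 1.13 with SPNCRNA.1157 at -1.21, and SPNCRNA.1605 at 1.35 with SPNCRNA.1604 at -1.31 and SPNCRNA.1606 at -1.43. Each of these was a call at an edgeR adjusted p below 0.05.

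Many intergenic RNA genes overlap another annotated gene, which need not be a coding gene. Of the 416 members found in the ASM294v3 annotation, 120 overlapped no other counted gene, 93 overlapped one on the same strand and 203 overlapped one on the opposite strand only. A protein-coding gene was overlapped on the same strand by 70 members and on the opposite strand by 137, counts that may share members. Of 98 tested members without overlap 45 were higher and 20 lower, or 45.9% and 20.4%, with a median log2 fold change of 0.24. At least 2-fold these were 25 and 11, or 25.5% and 11.2%. Over all tested genes the shares were 40.9% and 37.4%, and 7.23% and 5.52% at least 2-fold. Of 77 tested members with an overlap on the same strand 39 were higher and 13 lower, or 50.65% and 16.9%. At least 2-fold these were 22 and 5, or 28.6% and 6.49%, and reads there can belong to either gene. Of 181 with an overlap on the opposite strand only 79 were higher and 44 lower, or 43.65% and 24.3%. At least 2-fold these were 36 and 14, or 19.9% and 7.7%. How strand was set when reads were counted is not stated in the labels or files. As a check on it, 71 of 121 antisense RNA genes that lie wholly inside a coding gene of the other strand had at least 10 counts in every library. Of 95 tested members marked as a possible alternative UTR, 46 were higher and 15 lower, or 48.4% and 15.8%. At least 2-fold these were 23 and 4, or 24.2% and 4.21%. Of the other 265, 118 were higher and 64 lower, or 44.5% and 24.15%. At least 2-fold these were 61 and 26, or 23.0% and 9.81%. The subsets were not tested against each other.

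By position, 171 members lay on chromosome I, 155 on chromosome II and 90 on chromosome III, and 13 were not matched in the annotation. Of 148 tested on chromosome I, 32 rose and 11 fell at least 2-fold, or 21.6% and 7.43%. Of 128 on chromosome II these were 26 and 14, or 20.3% and 10.9%, and of 80 on chromosome III 25 and 5, or 31.2% and 6.25%, against the 7.23% and 5.52% of all genes given above. The chromosomes were not tested against each other. The nearest upstream coding gene was divergent for 340 members and on the same strand for 76, and the starts of divergent pairs lay a median of 240 bases apart. The annotated length had a median of 954 bases, from 219 to 5123, and the GC content a median of 33.6%.

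Promoter motifs are given as shares of windows, with no test. In the windows of 300 bases, searched on both strands, a TR box (TTCTTTGTT) was found in 15 of 416 members, or 3.61%, in 4 of the 83 windows of members that rose at least 2-fold (SPNCRNA.909, SPNCRNA.968, SPNCRNA.993 and SPNCRNA.1205) and in 1 of the 30 of members that fell (SPNCRNA.1071), against 2.01% of 6832 counted genes. The core of the Atf1 site (TGACGT) was found in 8.65% of the members and 6.21% of all genes, the HomolD box of ribosomal protein genes (CAGTCACA) in 1.68% and 2.58%, and the TATA box (TATAAA) in 45.2% and 47.5%. The core of the site at which Mmi1 binds meiotic transcripts and hands them to the nuclear exosome (UNAAAC) was present in 331 of 416 members on the transcript strand, at 2.01 matches per kb. It was present in 71 of the 83 that rose at least 2-fold, at 2.26 per kb, and in 23 of the 30 that fell, at 1.83 per kb. The Mmi1 core was not counted in other genes or against base composition, so its shares have no background. The median length was 1013 bases in the rises and 870 in the falls. A match shows only that these letters are present.

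Genes of the machinery that removes or limits such RNAs changed by less than 2-fold without exception among the 5 lists examined. The counts below stand beside 40.9% higher and 37.4% lower over all tested genes, and no list was tested against them. Of 28 genes of the nuclear exosome and RNA surveillance 8 were higher and 13 lower, or 28.6% and 46.4%, with a median log2 fold change of -0.07. The TRAMP helicase gene mtr4 fell, with means of 268 ± 13.1 and 138 ± 1.06 CPM (-0.96 ± 0.04 SE as log2 fold change, adjusted p = 4.03e-11 in edgeR) and mmi1 from 169 ± 8.54 to 108 ± 0.727 CPM (-0.64), while the exonuclease gene rrp6 had -0.07 (edgeR adjusted p = 0.0862). Of 18 genes of 3′ end processing and termination 2 were higher and 10 lower, or 11.1% and 55.6%, with a median of -0.12, led by the termination factor genes rhn1 at -0.61 and seb1 at -0.56. Of 17 genes of cytoplasmic RNA decay 11 were higher and 3 lower, or 64.7% and 17.6%, with a median of 0.15, and the nonsense-mediated decay genes upf3 and upf1 changed by 0.38 and -0.33. Of 11 genes of RNAi and heterochromatin 7 were higher and 3 lower, or 63.6% and 27.3%, with chp1, which encodes a chromodomain protein, at -0.79 and stc1 at 0.73. Of 17 chromatin factors that limit cryptic transcription 1 was higher and 10 lower, or 5.88% and 58.8%, with a median of -0.15, and the histone chaperone gene spt6 fell by 0.63 and the remodeller gene hrp1 by 0.52. The part of these genes in the changes of the intergenic RNA genes was not tested.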

How the data were processed

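Gene counts were compared between 3 wild type and 3 rad24 deletion libraries, grouped by their genotype labels. Raw gene counts of every library were deposited, made with a stranded mRNA kit, per the labels' protocols. The submitters' processing notes name the build ASM294v2 and, as tools, DESeq2, HTSeq 0.10.0, SAMtools and HISAT2 2.1.0; no strand setting is given in the sources used here. The authors' deposited table gives log2 fold changes with standard errors (a score on the log2 scale), a test statistic score, mean normalized counts (a signal averaged by the authors), p-values and adjusted p-values, per the file headers. Product and gene type were read from it.

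The 6987 rows held 1 repeated identifier, of which only the earlier row was used. Of 6986 genes, 902 fell below filterByExpr and 6084 were tested in edgeR 4.0.16 (R 4.3.3, limma 3.58.1) with TMM factors, the quasi-likelihood test, genotype as the only term and Benjamini-Hochberg adjustment over the 6084. CPM use TMM-scaled totals, and fold changes are the mutant over wild type. The SE was derived from the F statistic and is mostly smaller than that in the authors' deposited table, so it may overstate the precision. The common dispersion was a coefficient of variation of 3.61%. Chi-square per degree of freedom between libraries of a group was 2.44 to 7.94, and every library was counted as a sample of its own. In the authors' deposited table the sign was the same for 360 of 360 tested members, and 136 were called higher and 62 called lower at the same threshold.

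Positions, strands, overlaps and neighbours come from the RefSeq annotation of ASM294v3, matched by identifier for 416 of 429 members, since the count files carry no coordinates. Neighbours are the adjacent counted coding genes by midpoint. The members and lists were chosen with earlier results of these data known. The named genes are the 12 largest rises and 12 largest falls called without overlap of the libraries and with at least 5 CPM in the higher group, the 8 most abundant members, members with a name of their own, the coding neighbours of the first group and up to 2 genes with the largest change of each list. Other genes, such as those shown for shared gaps, rrp6 and fbp1-ot2, were picked once the values had been seen. The steps were tested on simulated data. Alternatives were other scalings, filters and tests, a test against 1.5-fold, a replicate block, leaving out each library, members without overlap, and other denominators of the share.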

Additional observations from a re-analysis of the deposited data

How the results depend on the processing

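All 114 members called at least 2-fold kept their direction wherever they were tested. With library size only, RLE or upper quartile factors, without a filter, with limma-voom, robust dispersion or the replicate block all 114 were still called, and with DESeq2 113. With 1 library left out, 111 to 114 were still called. The median log2 fold change of the members was 0.36 with upper quartile factors, 0.42 with library size only and 0.31 without a filter (421 members), where the median of all genes was 0.12, 0.19 and 0.04. With library size only, 190 members were higher and 60 lower. Asking for 50 counts in each library of either genotype left 264 members, of which 130 were higher and 57 lower, and 16 fell at least 2-fold. Only 74 of the 114 were tested under this filter, and all 74 were still called at least 2-fold. Members without overlap alone gave 45 higher and 20 lower, 25 and 11 at least 2-fold, since only 98 were tested. Without the 5 most abundant members the share of counts differed by 0.0641 percentage points, against 0.0519. Leaving out 1 library at a time gave 146 to 161 members higher, 72 to 81 lower, 83 to 92 and 32 to 35 at least 2-fold, medians of 0.26 to 0.29, 4547 to 4727 genes called over the whole table and differences in share of 0.0482 to 0.0560 points. Against 1.5-fold, 88 members rose and 35 fell.

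With the replicate number as a block, 162 members were higher and 78 lower, 83 and 30 at least 2-fold, and the genes called over the whole table were 4753. The labels do not say what a number marks. The correlations of same-numbered libraries were 0.00486, -0.000276 and 0.0828, and those of the other pairs ran from -0.0512 to 0.0415. Such values cannot tell whether same-numbered libraries share anything else. Among the named genes, reversals were confined to 3 coding neighbours under 2 scalings. With library size only snf22 moved from -0.10 to 0.0612 (edgeR adjusted p = 0.149), ste11 from -0.01 to 0.15 (0.00177) and cyc3 from -0.04 to 0.12 (0.00769), and with upper quartile factors ste11 moved to 0.0811 (0.0498). The call was also lost for snf22 with upper quartile factors (-0.0073, edgeR adjusted p = 0.859) and without wild type replicate 1, mutant replicate 1 or mutant replicate 3, and for cbh1 without wild type replicate 1, and gained for grc3 without wild type replicate 2. The causes were not tested. With DESeq2 the calls of omt2 and cbh1 were lost. Depth limits the members below 5 CPM most, and where a genotype holds only a few counts, as in SPNCRNA.940, the interval of a ratio is wide.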
